A study of Mus musculus with 4 samples.

Results

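The 10 genes described here belong to TGF-beta and activin signalling: the ligands Tgfb1, Tgfb2, Tgfb3 and Inhba, the related matrix proteins Ltbp1 and Ltbp2, the integrin chain Itgb8, and the receptors Tgfbr1, Tgfbr2 and Tgfbr3. They were taken by gene symbol from the 32285 genes of the count tables, and all 10 were found. Their unique molecular identifiers (UMIs, each a single captured transcript) were counted in every cell lineage of 4 single-cell libraries. The libraries came from the synovium and the lung of 4-month-old female mice on the C57BL/6 background: TNF+ mice, which carry a human TNF transgene (TNF-Tg) in 1 copy and develop erosive arthritis and pulmonary hypertension, and their TNF- littermates. Live cells sorted from 5 to 10 pooled mice made each synovial library and from 3 to 5 pooled mice each lung library. With 1 library per group there was no replicate and no test. Intervals in parentheses are 95% intervals that cover counting error only, and a difference between TNF+ and TNF- compares 2 libraries. The human transgene was not in the mouse reference and was not measured.

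TGF-beta ligands are secreted bound to their own propeptide, and latent TGF-beta binding proteins anchor that complex in the extracellular matrix. Integrins that contain the beta8 chain bind the latent complex and release the active ligand, which brings the type II receptor (Tgfbr2) together with the type I receptor (Tgfbr1) and leads to phosphorylation of SMAD2 and SMAD3, with Tgfbr3 (betaglycan) acting as a co-receptor that presents ligand. Inhba encodes the subunit of activin A, a related ligand that signals through activin receptors to the same SMADs, and in joint and lung the pathway is known for its part in matrix production, fibroblast activation and restraint of lymphocytes.

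The promoters of Inhba and Ltbp2 are shown because, of the 10 genes, these had the largest ratios between TNF+ and TNF- synovial mesenchyme. Each sequence is the 250 bases before the annotated start of the gene (RefSeq, GRCm38.p6), written 5' to 3' on the strand of the gene, with matches to the searched motifs in capitals. Inhba was read from chr13:16011601-16011850 on the plus strand and Ltbp2 from chr12:84876492-84876741 on the minus strand.

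Inhba: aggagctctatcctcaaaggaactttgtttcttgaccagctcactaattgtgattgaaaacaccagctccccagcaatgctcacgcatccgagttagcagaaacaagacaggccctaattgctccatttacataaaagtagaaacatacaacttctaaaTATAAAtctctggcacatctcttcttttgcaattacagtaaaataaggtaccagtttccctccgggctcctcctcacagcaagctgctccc
Ltbp2: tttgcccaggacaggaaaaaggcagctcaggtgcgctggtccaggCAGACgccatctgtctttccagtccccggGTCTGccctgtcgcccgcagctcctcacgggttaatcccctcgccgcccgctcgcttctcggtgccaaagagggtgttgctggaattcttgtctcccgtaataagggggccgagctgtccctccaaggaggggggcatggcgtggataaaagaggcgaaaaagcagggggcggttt

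Motifs were searched on both strands as AP-1 (TGANTCA), the SMAD box (CAGAC), the NF-kB site and the TATA box (TATAAA). Of 32851 promoters of this length, 6.75% held the AP-1 motif, 42.2% the SMAD box, 0.356% the NF-kB motif and 12.4% the TATA box. The Inhba window held 1 TATA match, which began 91 bases before the start, and the Ltbp2 window held 2 SMAD box matches, which began 205 and 176 bases before the start. Neither window held a match to AP-1 or NF-kB, nor did the windows of Tgfb1, Tgfb2, Ltbp1, Itgb8, Tgfbr1 and Tgfbr2. Tgfb3 and Tgfbr3 had no promoter entry that was used. A match describes the letters of the window and is not evidence of binding.

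After filtering, 6200 TNF- and 3152 TNF+ synovial cells and 6998 TNF- and 9174 TNF+ lung cells remained, with a median of 7137 to 12492 UMIs per cell and 33047125 to 84398714 UMIs in the kept cells of a library. The tissue labels held: the lubricin gene Prg4 was at 2.11 and 2.23 UMIs per cell in TNF- and TNF+ synovium against 0.0586 and 0.0135 in lung, and the surfactant gene Sftpc was at 58.2 and 11.3 in lung with 2 UMIs in each synovial library. Lineages are clusters that carry the markers of that class, and the member genes and the pathway genes described later were kept out of the clustering. Makeup differed: mesenchyme (fibroblasts and mural cells) fell from 3640 to 592 cells in TNF+ synovium and from 562 to 210 in TNF+ lung, while lung myeloid cells rose from 979 to 4921. The lineages of the TNF+ libraries were also held by other clusters than those of the TNF- libraries, and TNF+ lung mesenchyme and endothelium were shallow, with a median of 794 and 784 UMIs per cell against 6488 and 5598 in TNF-. Of the TNF+ synovial barcodes 17.6% were over the mitochondrial limit, against 3.78% in TNF-, and pairs of libraries shared 5 to 21 cell barcodes.

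**Figure D1:**
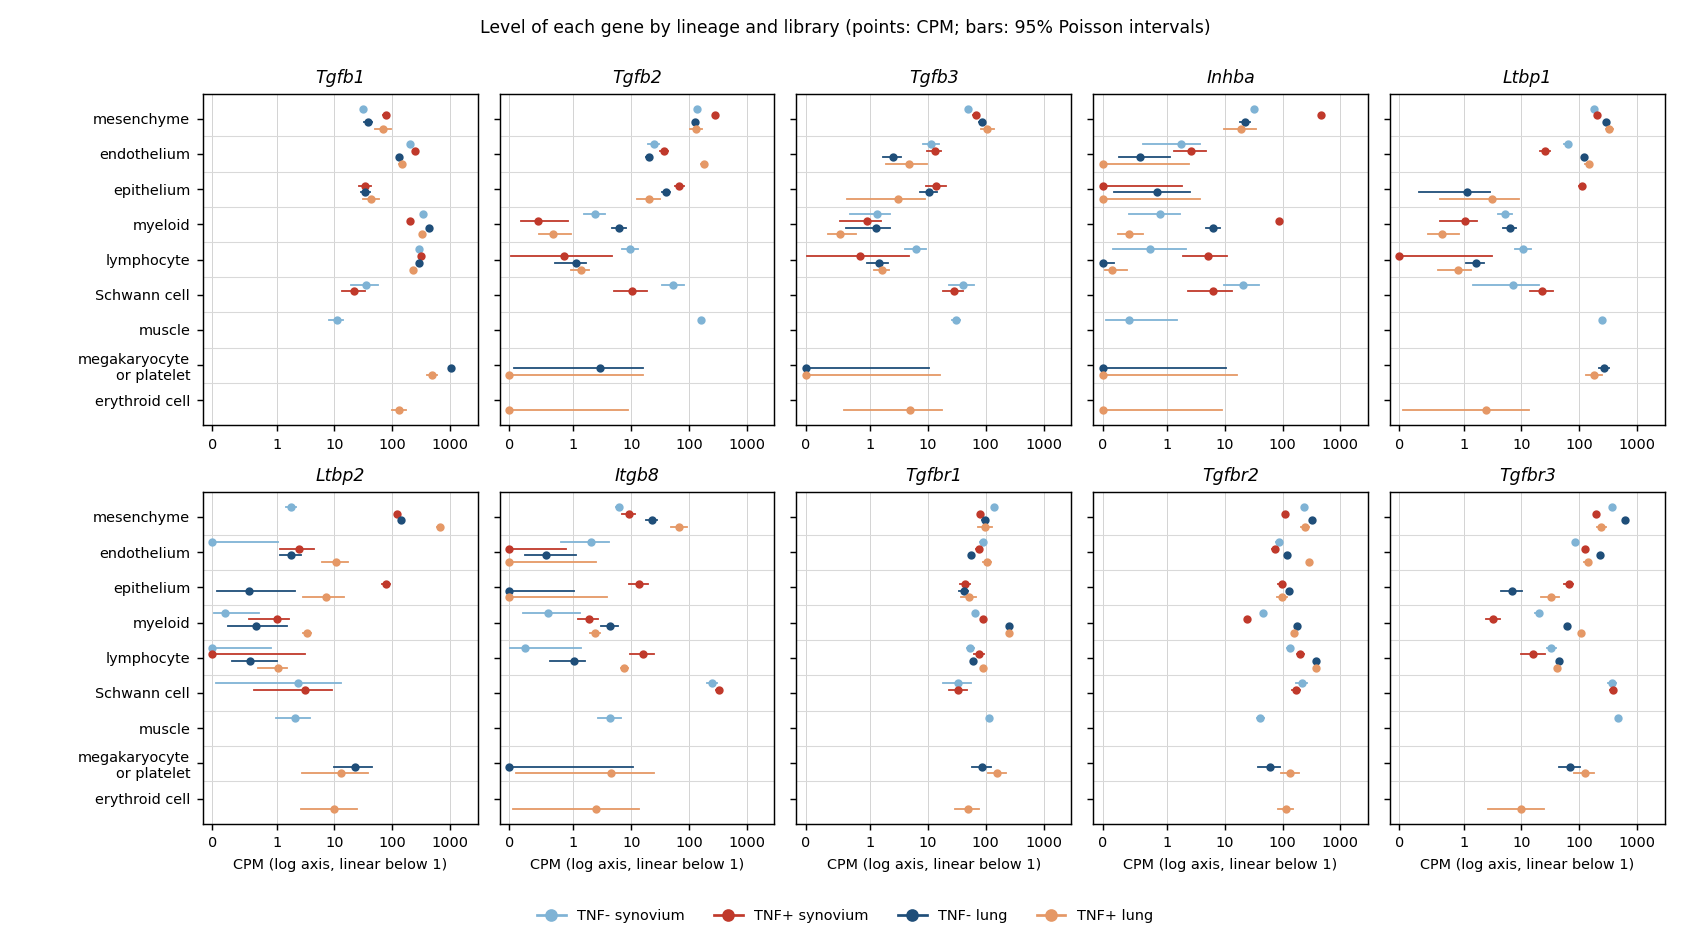
Level of each of the 10 genes in each lineage, in UMIs per 1e6 UMIs of that lineage (CPM), on an axis that is linear below 1 and logarithmic above it. Points are the 4 libraries and bars are 95% Poisson intervals. Inhba in synovial mesenchyme stood at 31.5 CPM in TNF- and 466 in TNF+, and Itgb8 was highest in Schwann cells of the synovium.

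Levels are given as CPM, the UMIs of a gene per 1e6 UMIs of the cells of that lineage in that library, and ratios as the log2 of TNF+ over TNF-. A ratio was called when it passed 2-fold (a log2 ratio past 1 or -1) with at least 20 UMIs over both libraries. Over the whole synovium 3 of 10 genes were higher against 11.8% of all genes tested, and 3 were lower against 21.9% (median log2 ratio -0.60, all genes -0.17). In whole tissue, fewer cells of a type and less RNA per cell cannot be told apart. Within synovial mesenchyme 4 of 10 genes were higher against 9.35% of all genes tested, and 1 was lower against 21.5% (median log2 ratio 0.52, all genes -0.27). In synovial myeloid cells 2 of 9 genes were higher against 9.06% of all genes tested, and 3 were lower against 20.3% (median log2 ratio -0.74, all genes -0.16). In synovial endothelium 0 of 7 genes were higher against 6.65% of all genes tested, and 1 was lower against 10.5% (median log2 ratio 0.18, all genes -0.13). In synovial lymphocytes 1 of 8 genes was higher against 7.89% of all genes tested, and 4 were lower against 13% (median log2 ratio -0.47, all genes 0.17). A cluster led by Il5 made up 142 of 334 TNF- and 19 of 182 TNF+ lymphocytes. The part of this makeup in the lymphocyte ratios was not tested. In Schwann cells 1 of 8 genes was higher against 11.6% of all genes tested, and 1 was lower against 13.4% (median log2 ratio -0.14, all genes -0.048). The genes higher in mesenchyme and in myeloid cells were Tgfb1, Tgfb2, Inhba and Ltbp2 in the former and Inhba and Itgb8 in the latter.

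Over the whole lung 0 of 10 genes were higher against 5.79% of all genes tested, and 4 were lower against 25.5% (median log2 ratio -0.75, all genes -0.32). In lung mesenchyme 2 of 10 genes were higher against 9.28% of all genes tested, and 1 was lower against 9.01% (median log2 ratio 0.13, all genes -0.015). For lung endothelium 3 of 8 genes were higher against 10.1% of all genes tested, and 0 were lower against 8.77% (median log2 ratio 0.94, all genes 0.035). In lung myeloid cells 1 of 10 genes was higher against 4.23% of all genes tested, and 4 were lower against 15.6% (median log2 ratio -0.63, all genes -0.069). In lung lymphocytes 1 of 9 genes was higher against 6.05% of all genes tested, and 0 were lower against 8.34% (median log2 ratio 0.16, all genes -0.011). Among lung epithelial cells 1 of 6 genes was higher against 11.7% of all genes tested, and 1 was lower against 7.13% (median log2 ratio -0.034, all genes 0.036). In the megakaryocyte or platelet cluster 1 of 5 genes was higher against 17% of all genes tested, and 1 was lower against 8.1% (median log2 ratio 0.85, all genes 0.21). The 4 genes lower over the whole lung were Tgfb2, Tgfb3, Inhba and Ltbp1. The TNF+ lung held fewer cells of endothelium (398 against 2282), mesenchyme (210 against 562), epithelium (156 against 356) and platelets (131 against 220), and the part of this makeup in the 4 ratios was not tested. Of the 44 called ratios over all 13 comparisons, 26 fell short under at least 1 alternative processing. The other 18 stayed past 2-fold wherever an alternative gave a value, but only 8 of these had a value under all, and 10 had too few UMIs or cells under 1 to 3 of the alternatives. Without clusters mostly of 1 library no gene was past 2-fold over the whole synovium, where Inhba came to -0.18, Ltbp1 to -0.28, Ltbp2 to 0.92, Itgb8 to 0.20, Tgfbr2 to -0.13 and Tgfbr3 to -0.78, and over the whole lung Inhba came to -0.83 without the cell filters. Leaving out those synovial clusters also dropped fibroblast clusters with 1378, 846 and 754 of the 3640 mesenchymal cells of TNF- synovium.

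**Figure D2:**
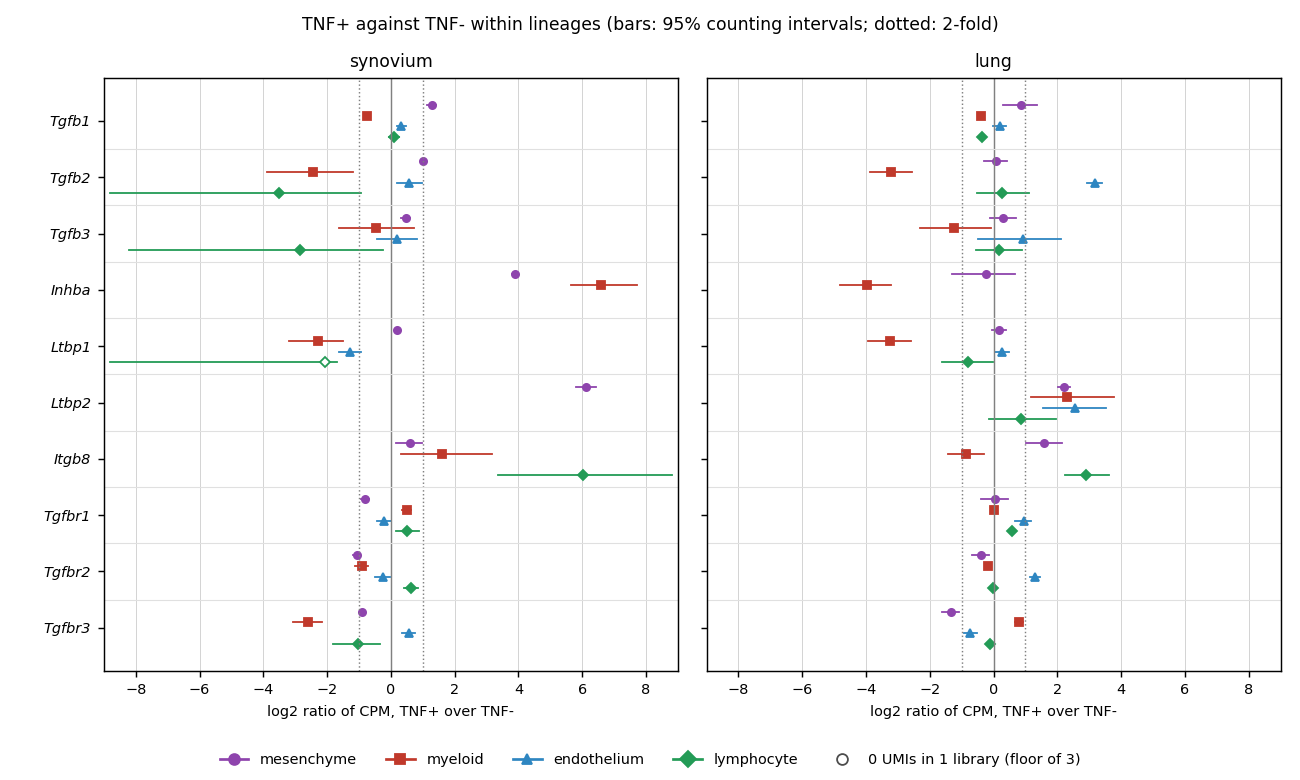
Log2 ratio of TNF+ over TNF- for the 10 genes in mesenchyme, myeloid cells, endothelium and lymphocytes of synovium and lung. Bars are 95% counting intervals, dotted lines mark 2-fold and open symbols are ratios against a floor of 3 UMIs. The largest ratios were those of Inhba in synovial myeloid cells (6.58) and Ltbp2 in synovial mesenchyme (6.12).

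Tgfb1 (ENSMUSG00000002603, chr7:25687002-25705077 on the plus strand of GRCm38), the TGF-beta isoform made by blood and immune cells, was mainly a transcript of hematopoietic and endothelial cells. Synovial myeloid cells held 48.4% of its UMIs in TNF- and 58.3% in TNF+ synovium, and lung myeloid cells 29.1% and 68.4%. In the lung it was highest in the megakaryocyte or platelet cluster, at 1051 CPM (947 to 1164) in TNF- and 494 CPM (407 to 594) in TNF+. Myeloid cells, lymphocytes and endothelium followed in that order in both lungs, with intervals that did not overlap. TNF- synovium had the order myeloid, lymphocyte and endothelium (341, 296 and 202 CPM), whereas in TNF+ synovium lymphocytes (317) and endothelium (251) lay above myeloid cells (204).

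The level of Tgfb1 in synovial mesenchyme was 31.5 CPM (29.96 to 33) in TNF- and 76.5 CPM (70.1 to 83.4) in TNF+, a log2 ratio of 1.28 (1.14 to 1.43) from 1638 and 515 UMIs. That rise lay largely in a TNF+ cluster led by Mmp13, Saa3 and Cxcl5, which is described with Inhba: without it and the Trem2 cluster of myeloid cells the ratio was 0.43 (0.16 to 0.70). Without all clusters mostly of 1 library it was 0.016, a setting that also drops most TNF- fibroblasts, as given with Inhba. With each cell weighted equally the mesenchymal ratio came to 0.96. The ratio in myeloid cells was -0.74 in synovium and -0.39 in lung, both short of 2-fold. In the platelet cluster the ratio was -1.09 (-1.41 to -0.78), from 368 and 112 UMIs, and it came to between -0.75 and -0.97 under 4 alternatives.

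Tgfb2 (ENSMUSG00000039239, chr1:186622792-186705989 on the minus strand of GRCm38), an isoform typical of stromal cells, was a mesenchymal transcript in the synovium, where mesenchyme held 87.3% of its UMIs in TNF- and 81.9% in TNF+. Its level there was 139 CPM (136 to 142) and 279.8 CPM (267 to 293), a ratio of 1.01 (0.93 to 1.08) from 7248 and 1883 UMIs. The Mmp13 cluster alone stood at 392.1 CPM, and without it and the Trem2 cluster the ratio was -0.041 (-0.19 to 0.10). Among fibroblast clusters with at least 50 cells in both libraries, the level was 112 and 106 CPM in the Grm8 cluster. It was 151 and 229 in the Gdf10 cluster, a ratio of 0.60 (0.34 to 0.85), and 121 and 121 in the tendon gene cluster (Chad, Kera). The mesenchymal ratio came to 0.029 without clusters mostly of 1 library, which also drops the Grm8 and Gdf10 clusters. With each cell weighted equally it came to 0.70. The muscle cells of TNF- synovium reached 163 CPM (152 to 175).

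In lung mesenchyme Tgfb2 was at 126 CPM (115 to 138) in TNF- and 133 CPM (105 to 166) in TNF+, a ratio of 0.075 (-0.29 to 0.42). Lung endothelium, the lining of the vessels, went from 20.3 CPM (18 to 22.8) to 182 CPM (161 to 205), a ratio of 3.17 (2.92 to 3.41) from 283 UMIs in 2282 cells and 274 UMIs in 398 cells, and this ratio stayed between 2.47 and 3.56 under the 11 alternatives that gave a value. Without clusters mostly of 1 library, lung endothelium had too few cells to compare. Most of the TNF+ UMIs (210 of 274) came from 89 cells of a cluster led by Prnd, at 238 CPM. TNF- lung also held an endothelial cluster (Vwf, Slc6a2) of 59 cells at 149 CPM, while a single cluster of 1419 TNF- and 4 TNF+ cells (Glp1r, Gpihbp1) made up most of the TNF- endothelium. Among cells thinned to 1000 UMIs, a UMI of Tgfb2 was found in 1.77% of 2031 cells (1.24% to 2.45%) of TNF- and 11.9% of 159 cells (7.35% to 18%) of TNF+ lung endothelium, against 0.124% and 0.131% of lymphocytes. Before thinning the endothelial shares were 5.43% and 17.6%. Tgfb2 in TNF+ lung myeloid cells was at 0.68 CPM.

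Lung epithelium had Tgfb2 at 40.2 CPM (33.8 to 47.3) in TNF- and 20.5 CPM (12.5 to 31.6) in TNF+, a ratio of -0.97 (-1.72 to -0.29) that was short of 2-fold, and the epithelial cells of TNF+ synovium were at 68.3 CPM. Immune and Schwann cells had few Tgfb2 UMIs. Lung myeloid cells had 55 UMIs in TNF-, all in 8 of 979 cells with up to 31 in 1 cell, and 32 in TNF+, a ratio of -3.20 (-3.88 to -2.55) that turned to 0.74 without predicted doublets. In synovium the ratio was -2.44 (-3.90 to -1.18) in myeloid cells (24 and 7 UMIs), -3.51 (-8.85 to -0.94) in lymphocytes (39 and 1 UMIs, the former in 13 cells) and -2.37 (-3.61 to -1.25) in Schwann cells (23 and 10 UMIs). The collagen transcript Col3a1 moved the same way, at 0.719 UMIs per lymphocyte in TNF- against 0.187 in TNF+ and 0.39 against 0.192 per myeloid cell. Its part in these low ratios was not tested.

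Tgfb3 (ENSMUSG00000021253, chr12:86056745-86079041 on the minus strand of GRCm38), the third TGF-beta isoform, was also mesenchymal, with 89.5% and 70.2% of its UMIs in mesenchyme of TNF- and TNF+ synovium and 75.3% and 42.4% in lung. Its mesenchymal level was 48.5 CPM (46.6 to 50.4) and 66.6 CPM (60.6 to 73) in synovium, a ratio of 0.46 (0.31 to 0.60), and 86.1 CPM (77.3 to 95.6) and 107 CPM (81.5 to 137) in lung, a ratio of 0.31 (-0.11 to 0.70). Without the Mmp13 cluster, which stood at 38.8 CPM, and the Trem2 cluster, the synovial ratio was 1.08 (0.90 to 1.25). The highest synovial level was in the Myh11 mural cluster (contractile cells of vessel walls), at 273 CPM (235 to 316) in TNF- and 219 CPM (185 to 256) in TNF+, a ratio of -0.32 (-0.64 to -0.00075). Without the Mmp13 and Trem2 clusters, that mural cluster was 87 of 361 mesenchymal cells in TNF+ and 59 of 3638 in TNF-. The part of this makeup in the ratio of 1.08 was not tested. In the lung a fibroblast-like cluster of 94 TNF- cells reached 176 CPM (149.9 to 204). In TNF- synovium the interval of Schwann cells (39.7 CPM) overlapped those of mesenchyme and of muscle (30.4 CPM), and muscle lay above endothelium (11.5 CPM).

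Elsewhere Tgfb3 was near the bottom of the range. Its ratio of -1.24 (-2.31 to -0.065) in lung myeloid cells rested on 11 and 25 UMIs and came to -0.23 with each cell weighted equally. The ratio of -1.77 (-4.11 to -0.11) in lung epithelium rested on 37 and 3 UMIs and came to -0.27 without the cell filters. That of -2.87 (-8.23 to -0.25) in synovial lymphocytes rested on 25 and 1. Over the whole lung it fell from 8.59 to 1.71 CPM, a ratio of -2.33 (-2.61 to -2.06), beside the ratio above 0 within mesenchyme.

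Inhba (ENSMUSG00000041324, chr13:16011851-16031621 on the plus strand of GRCm38), the activin A subunit, changed in both stromal and myeloid cells of the synovium. It rose in mesenchyme from 31.5 CPM (30.03 to 33.1) in TNF- to 466 CPM (450.1 to 483) in TNF+, a log2 ratio of 3.89 (3.80 to 3.97) from 1642 and 3138 UMIs. It rose in myeloid cells from 0.896 CPM (0.41 to 1.7) to 85.8 CPM (81.3 to 90.5), a ratio of 6.58 (5.65 to 7.71) from 9 and 1362 UMIs. Mesenchyme and myeloid cells together gave nearly every Inhba UMI of TNF+ synovium, 68.8% and 29.8%, whereas mesenchyme gave 94.7% in TNF-. Schwann cells, lymphocytes and endothelium were at 6.21, 5.09 and 2.65 CPM in TNF+ with overlapping intervals.

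Both rises were held by a single cluster each, and both clusters were nearly absent from TNF- synovium. The mesenchymal one was led by Mmp13, Saa3 and Cxcl5, a collagenase, an acute-phase protein and a neutrophil chemokine, with 231 TNF+ and 2 TNF- cells. It stood at 781 CPM (753 to 809) and held 2957 of the 3138 mesenchymal UMIs, with a UMI in 157 of 231 cells and 35.5% of its UMIs in 10 cells. The myeloid one was led by Cxcl3, Trem2 and Spp1, with 755 TNF+ and 8 TNF- cells. It stood at 108 CPM (103 to 114) and held 1346 of 1362 myeloid UMIs, with a UMI in 174 cells and 39.8% of its UMIs in 10 of them. No macrophage or monocyte cluster of TNF- synovium had an Inhba UMI. TNF- myeloid cells were mostly dendritic-like (374 of 620), whereas 998 of 1107 TNF+ myeloid cells were macrophage- or monocyte-like.

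In the 4 mesenchymal clusters with at least 50 cells in both synovia, Inhba did not rise past 2-fold. The Grm8 fibroblast cluster was at 26.9 CPM in TNF- and 9.61 in TNF+, a ratio of -1.49 (-3.37 to -0.12) from 550 and 4 UMIs. The Gdf10 fibroblast cluster was at 31.9 and 31.2 CPM, a ratio of -0.030 (-0.78 to 0.63). The tendon gene cluster was at 89.5 and 63.3 CPM, a ratio of -0.50 (-0.93 to -0.090), and the Myh11 mural cluster at 59.2 and 70.5 CPM, a ratio of 0.25 (-0.38 to 0.90). Mural-like cells as a whole went from 19.96 to 95 CPM, a ratio of 2.25 (1.68 to 2.84), with 34 of the 83 TNF+ UMIs in 4 cells of the Abcc9 pericyte-like cluster. Without the Mmp13 and Trem2 clusters the ratio was 0.96 (0.73 to 1.19) in mesenchyme and 2.35 (1.08 to 3.71) in myeloid cells, the latter from 9 and 16 UMIs. Leaving out all clusters with over 90% of cells from 1 library gave 0.23 in mesenchyme. That setting also dropped the Grm8, Gdf10 and Pi16 fibroblast clusters, with 1378, 846 and 754 of the 3640 TNF- mesenchymal cells. It therefore compares mainly tendon-like and mural cells. Library and cluster cannot be told apart here, since each cluster came from 1 pool of mice. Thinned to 1000 UMIs per cell, 2.3% of 3613 cells (1.83% to 2.84%) of TNF- and 14.5% of 573 cells (11.7% to 17.6%) of TNF+ mesenchyme had an Inhba UMI, and among myeloid cells 0 of 618 cells (where 3 counts set a limit of 0.485% at this thinned depth) in TNF- and 4.71% of 1104 cells (3.54% to 6.13%) in TNF+, with 0.207% of TNF+ endothelium as the background. Before thinning the mesenchymal shares were 18% and 38.7% and the myeloid shares 0.806% and 16.8%.

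The lung showed no such rise. Inhba in lung mesenchyme was at 22.8 CPM (18.3 to 27.9) in TNF- and 19.2 CPM (9.6 to 34.4) in TNF+, a ratio of -0.24 (-1.29 to 0.66) from 92 and 11 UMIs. In lung myeloid cells it went from 6.36 to 0.403 CPM, a ratio of -3.98 (-4.81 to -3.21), but the 56 TNF- UMIs lay in 8 of 979 cells and 41 of them in 1 cell. Endothelium, lymphocytes and epithelium had 0 to 8 UMIs in either lung, which at this depth is not distinguishable from background.

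**Figure D3:**
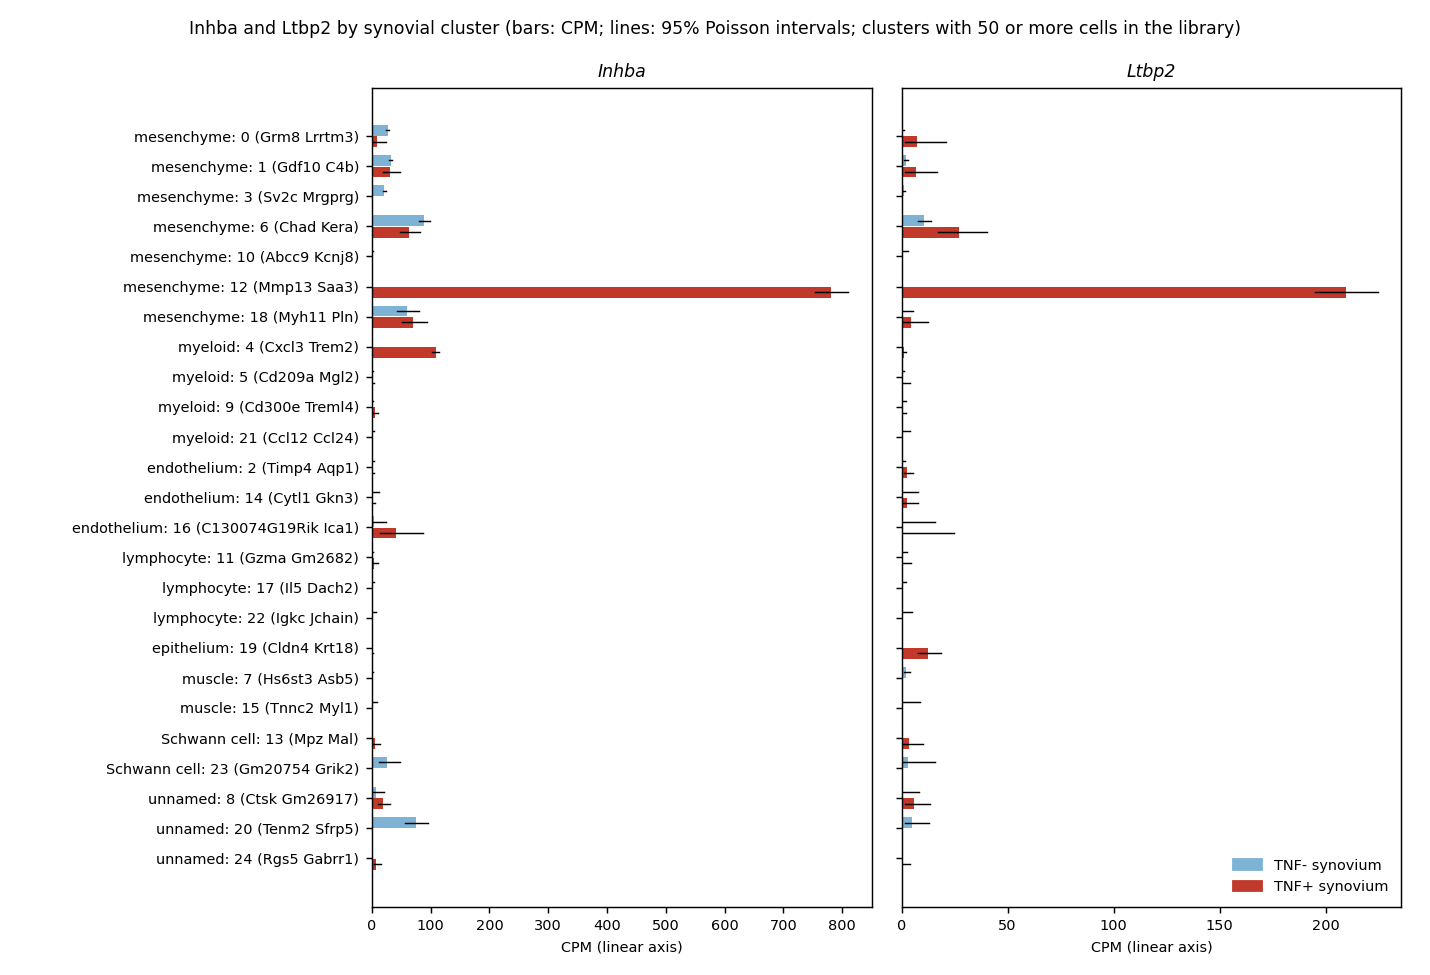
Level of Inhba and Ltbp2 in CPM (linear axis) in each synovial cluster with at least 50 cells in a library, TNF- and TNF+ side by side, with 95% Poisson intervals. The Mmp13 cluster stood at 781 CPM for Inhba and 209 for Ltbp2, and the Trem2 cluster at 108 for Inhba.

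Ltbp1 (ENSMUSG00000001870, chr17:75005568-75392512 on the plus strand of GRCm38), which anchors latent TGF-beta in the matrix, was past 2-fold in neither mesenchyme, whereas its whole-tissue level fell. Synovial mesenchyme had 177 CPM (174 to 181) in TNF- and 203 CPM (192 to 214) in TNF+, a ratio of 0.20 (0.11 to 0.28), and lung mesenchyme had 292 CPM (276 to 309) in TNF- and 330.3 CPM (285 to 381) in TNF+, a ratio of 0.18 (-0.052 to 0.40). Over whole synovium the ratio was -1.29 (-1.36 to -1.22) and over whole lung -3.22 (-3.36 to -3.09). Mesenchyme held 84.5% of its UMIs in TNF- and 70.3% in TNF+ synovium. Within TNF- synovium the Pi16 fibroblast cluster (382 CPM) and the Abcc9 pericyte-like cluster (359) were highest, and muscle cells reached 244.

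The endothelial ratios lay on opposite sides of 0 in the 2 tissues, a difference that was not tested. Ltbp1 fell in synovial endothelium from 62.7 CPM (54.6 to 71.6) to 25.6 CPM (20.9 to 30.9), a ratio of -1.29 (-1.64 to -0.95) from 218 and 106 UMIs, and this came to -0.65 with coarser clusters and -0.62 as UMIs per cell. Lung endothelium was at 120.1 and 145 CPM, a ratio of 0.27 (0.061 to 0.48). The lung megakaryocyte or platelet cluster overlapped mesenchyme in TNF-, at 271 CPM (219.6 to 332), and stood at 181 CPM (129.7 to 245) in TNF+. In low lineages the ratio was -2.30 (-3.18 to -1.49) in synovial myeloid cells (53 and 17 UMIs), -3.25 (-3.93 to -2.59) in lung myeloid cells (55 and 31) and 1.70 (-0.032 to 4.09) in Schwann cells (3 and 22). The Schwann cell interval included 0, and without predicted doublets that ratio had too few UMIs to be called. Synovial lymphocytes had 43 UMIs in 16 TNF- cells and 0 in TNF+. There the floor of 3 UMIs gives a log2 ratio of -2.06, with a counting interval that reaches up to -1.70 and has no lower end. The synovial myeloid ratio came to -0.83 without predicted doublets, and Col3a1 moved the same way in these synovial cells, as given with Tgfb2.

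Ltbp2 (ENSMUSG00000002020, chr12:84783212-84876532 on the minus strand of GRCm38) belongs to the same family but is a matrix protein of elastic fibres that does not bind latent TGF-beta. It rose in mesenchyme of both tissues. In synovium it went from 1.77 CPM (1.42 to 2.17) to 123 CPM (115 to 132), a log2 ratio of 6.12 (5.81 to 6.45) from 92 and 827 UMIs, and in lung from 145 CPM (133 to 157) to 666 CPM (601 to 736), a ratio of 2.20 (2.01 to 2.39) from 585 and 381 UMIs. Endothelium and lymphocytes of TNF- synovium had 0 UMIs, and the next lineage of TNF+ synovium was the epithelium, at 79.5 CPM (67.8 to 92.6) in 179 cells. Over the whole lung, with its smaller mesenchyme in TNF+, the ratio was -0.74 (-0.90 to -0.58).

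The Mmp13 cluster held 793 of the 827 Ltbp2 UMIs of TNF+ synovial mesenchyme, with a UMI in 133 of 231 cells. Unlike Inhba, Ltbp2 stayed past 2-fold under every alternative, from 1.10 to 7.01. Without the Mmp13 and Trem2 clusters it was 2.71 (2.10 to 3.29), from 92 and 34 UMIs. The tendon gene cluster was at 10.5 CPM (7.61 to 14.1) in TNF- and 27.1 CPM (17.4 to 40.4) in TNF+, a ratio of 1.37 (0.59 to 2.12). Without the Mmp13 and Trem2 clusters it was 80 of 361 mesenchymal cells in TNF+ and 367 of 3638 in TNF-. The part of this makeup in the ratio of 2.71 was not tested. Thinned to 1000 UMIs, 0.249% of 3613 cells (0.114% to 0.472%) of TNF- and 7.16% of 573 cells (5.18% to 9.58%) of TNF+ synovial mesenchyme had a UMI, against 0 of lymphocytes in both. Before thinning these shares were 1.51% and 24.8%.

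In the lung the cell types of the mesenchyme had ratios on opposite sides of 0. Fibroblast-like cells went from 38.6 CPM (32.1 to 46) to 910.4 CPM (818 to 1009.9), a ratio of 4.56 (4.26 to 4.87) from 123 and 357 UMIs. Mural-like cells went from 541 CPM (492 to 592) to 133 CPM (85.4 to 198), a ratio of -2.02 (-2.68 to -1.43) from 462 and 24 UMIs. The fibroblast rise rested on few cells: of the TNF+ UMIs, 248 lay in a cluster of 22 TNF+ cells, where 45 UMIs lay in 144 TNF- cells, and 10 of the 210 TNF+ mesenchymal cells held 63.8% of all. Thinned to 1000 UMIs, 9.65% of 456 cells (7.1% to 12.7%) of TNF- and 32.9% of 76 cells (22.5% to 44.6%) of TNF+ lung mesenchyme had a UMI, and before thinning 20.6% and 30%. As UMIs per cell the lung mesenchyme ratio was 0.80.

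Low counts of Ltbp2 also rose elsewhere in TNF+ lung. Lung myeloid cells went from 0.682 to 3.4 CPM, a ratio of 2.32 (1.16 to 3.78) from 6 and 160 UMIs, of which dendritic-like cells had 2 and 59 and macrophage- or monocyte-like cells 2 and 99. Lung endothelium had 25 and 16 UMIs, a ratio of 2.57 (1.57 to 3.53) that came to 0.71 without the cell filters. Thinned to 1000 UMIs, a UMI was found in 0.417% of TNF+ myeloid cells and 0.0656% of TNF+ lymphocytes.

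Itgb8 (ENSMUSG00000025321, chr12:119158022-119238802 on the minus strand of GRCm38), the integrin chain that releases TGF-beta from its latent complex, was highest in Schwann cells, the glia of peripheral nerve. Its level there was 249.7 CPM (205 to 302) in TNF- and 326 CPM (291 to 364) in TNF+ synovium, a ratio of 0.39 (0.065 to 0.72) from 107 and 315 UMIs, and every other lineage named in TNF+ synovium was at or below 16.1 CPM. Schwann cells held 21.6% of its UMIs in TNF- and 69.4% in TNF+, with 67 and 233 cells. Over the whole synovium the ratio was 1.08 (0.89 to 1.27), which came to 0.20 without clusters mostly of 1 library.

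Lymphocytes of both tissues showed a higher level in TNF+, but in synovial T cells alone the 0 and 19 UMIs were too few to be called. Synovial lymphocytes had 1 UMI in TNF- and 19 in TNF+, all in the T cell cluster, a ratio of 6.03 (3.37 to 11.40) that had too few UMIs to be called without predicted doublets or with the stricter cell filter. Lung lymphocytes went from 1.02 CPM (0.632 to 1.56) to 7.63 CPM (6.63 to 8.74), a ratio of 2.90 (2.25 to 3.63) from 21 and 208 UMIs that stayed between 2.77 and 2.98 under every alternative. A T cell cluster led by genes that include Il23r and Foxp3 held 202 of the TNF+ UMIs, in 63 of 841 cells. That cluster had 201 TNF- cells and went from 9.75 CPM (5.87 to 15.2) to 27.3 CPM (23.7 to 31.3), a ratio of 1.49 (0.80 to 2.25). The lung epithelium had 0 UMIs in 356 TNF- and 156 TNF+ cells.

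Other Itgb8 ratios rested on few cells. Lung mesenchyme went from 22.8 to 68.2 CPM, a ratio of 1.58 (1.004 to 2.14), but from 92 to 39 UMIs, of which 10 cells held 94.9%. This ratio turned to -0.39 with each cell weighted equally and was 0.18 as UMIs per cell. Synovial myeloid cells had 6 and 29 UMIs, a ratio of 1.61 (0.32 to 3.17) that came to 0.18 without the cell filters. Lung dendritic-like cells were at 23 and 12.1 CPM, a ratio of -0.93 (-1.59 to -0.25), with 35 of the 50 TNF+ UMIs in 1 cell. Synovial mesenchyme was at 6.05 and 9.06 CPM.

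Tgfbr1 (ENSMUSG00000007613, chr4:47353222-47414931 on the plus strand of GRCm38), the type I receptor kinase, was measured in every lineage and passed 2-fold in none of the 13 comparisons. In the lung it was highest in myeloid cells, at 248 CPM (238 to 259) in TNF- and 251 CPM (246 to 256) in TNF+, a ratio of 0.017 (-0.049 to 0.084) from 2182 and 11819 UMIs. Within them the C1q macrophage cluster went from 804 to 302 CPM, a ratio of -1.41 (-1.56 to -1.27). The whole lung was at 102 and 184 CPM beside the larger myeloid share. Synovial mesenchyme had 141 CPM (138 to 145) in TNF- and 80.4 CPM (73.8 to 87.5) in TNF+, a ratio of -0.81 (-0.94 to -0.69), and synovial myeloid cells had 64.3 and 90.6 CPM, a ratio of 0.49 (0.36 to 0.63). Mesenchyme was the highest synovial lineage in TNF-, whereas in TNF+ myeloid cells, mesenchyme, lymphocytes and endothelium lay between 76.5 and 90.6 CPM with each overlapping the next. Lung endothelium went from 55 to 106 CPM, a ratio of 0.94 (0.69 to 1.19), between libraries whose endothelial clusters differed, as given with Tgfbr2.

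Tgfbr2 (ENSMUSG00000032440, chr9:116084293-116175360 on the minus strand of GRCm38), the type II receptor that binds the ligand first, was lower in TNF+ synovial mesenchyme, at 233 CPM (229 to 237) in TNF- and 111 CPM (103 to 119) in TNF+. The ratio of -1.07 (-1.18 to -0.96) rested on 12142 and 748 UMIs and lay close to the 2-fold line, at -0.97 without the Mmp13 and Trem2 clusters, -0.80 with median-of-ratios scaling and -0.26 without clusters mostly of 1 library. The last setting also drops the Pi16 cluster and the other large TNF- fibroblast clusters given with Inhba. The Pi16 fibroblast cluster, with 754 TNF- and 19 TNF+ cells, was highest in TNF- at 467 CPM. Synovial macrophage- or monocyte-like cells went from 88.4 to 24.6 CPM, a ratio of -1.85 (-2.08 to -1.61). The Trem2 cluster made up 755 of the 998 TNF+ cells of that type and 8 of the 219 TNF- cells. For all synovial myeloid cells the ratio was -0.92 (-1.12 to -0.73), short of 2-fold, and -0.23 (-0.51 to 0.050) without the Trem2 cluster. Synovial lymphocytes were higher in TNF+ at 205 against 132 CPM, a ratio of 0.63 (0.40 to 0.85). Over the whole synovium the ratio was -1.46 (-1.53 to -1.39).

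In the lung Tgfbr2 was highest in lymphocytes, at 376 CPM (368 to 385) in TNF- and 374 CPM (367 to 381) in TNF+, a ratio of -0.0091 (-0.052 to 0.034) from 7742 and 10189 UMIs. Lung endothelium was higher in TNF+, at 119 CPM (113 to 125) and 290.4 CPM (264 to 319), a ratio of 1.29 (1.14 to 1.44) that came to 0.90 without the cell filters and 0.60 as UMIs per cell. No lung endothelial cluster held at least 50 cells in both libraries. The Glp1r cluster held 1419 TNF- and 4 TNF+ cells, and clusters led by Prnd held 261 and 89 TNF+ against 19 and 3 TNF- cells. The part of this makeup in the endothelial ratios of the lung was not tested. Lung mesenchyme was at 326 and 246 CPM, a ratio of -0.40 (-0.67 to -0.15). The platelet cluster passed 2-fold on 21 and 31 UMIs, a ratio of 1.19 (0.34 to 2.06) that came to 0.15 without the cell filters.

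Tgfbr3 (ENSMUSG00000029287, chr5:107106570-107289629 on the minus strand of GRCm38), the co-receptor betaglycan, was lower in TNF+ stroma of both tissues. Synovial mesenchyme went from 367 CPM (362 to 373) to 196 CPM (186 to 207), a ratio of -0.90 (-0.99 to -0.82) from 19124 and 1321 UMIs that did not pass 2-fold. Lung mesenchyme went from 612 CPM (588 to 636) to 241 CPM (203 to 285), a ratio of -1.34 (-1.60 to -1.10) from 2474 and 138 UMIs. A fibroblast-like lung cluster of 94 TNF- and 4 TNF+ cells was at 1315 CPM in TNF-, and without clusters mostly of 1 library the lung ratio was -0.90. Fibroblast-like cells of the synovium alone were at 376 and 349 CPM, a ratio of -0.11 (-0.22 to -0.00053), while the Mmp13 cluster stood at 140.2.

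The myeloid ratios lay on opposite sides of 0 in synovium and lung, a difference that was not tested. In synovium Tgfbr3 went from 19.9 CPM (17.3 to 22.9) to 3.28 CPM (2.45 to 4.3), a ratio of -2.60 (-3.07 to -2.16) from 200 and 52 UMIs. The ratio stayed past 2-fold under every alternative, and Col3a1 was also lower beside it. Without the Trem2 cluster it was -1.08 (-1.66 to -0.54), from 200 and 33 UMIs, with an interval that crossed the 2-fold line. Lung myeloid cells went from 62.3 CPM (57.2 to 67.7) to 109 CPM (106 to 112), a ratio of 0.81 (0.68 to 0.94). A Treml4 monocyte cluster held 4940 of the 5136 TNF+ UMIs and was itself at 187 and 170.5 CPM, with 309 TNF- and 2779 TNF+ cells. Schwann cells were at 364 and 380.1 CPM, and muscle cells of TNF- synovium at 459. Lung epithelium rose on 24 and 31 UMIs, a ratio of 2.23 (1.41 to 3.06) that came to 0.35 without the cell filters. Synovial lymphocytes fell on 133 and 19 UMIs, a ratio of -1.03 (-1.81 to -0.33) that came to -0.14 without predicted doublets and -0.076 with each cell weighted equally. Within synovial T cells Tgfbr3 was at 28.3 and 21.2 CPM, from 42 and 18 UMIs, which was short of 2-fold.

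**Figure D4:**
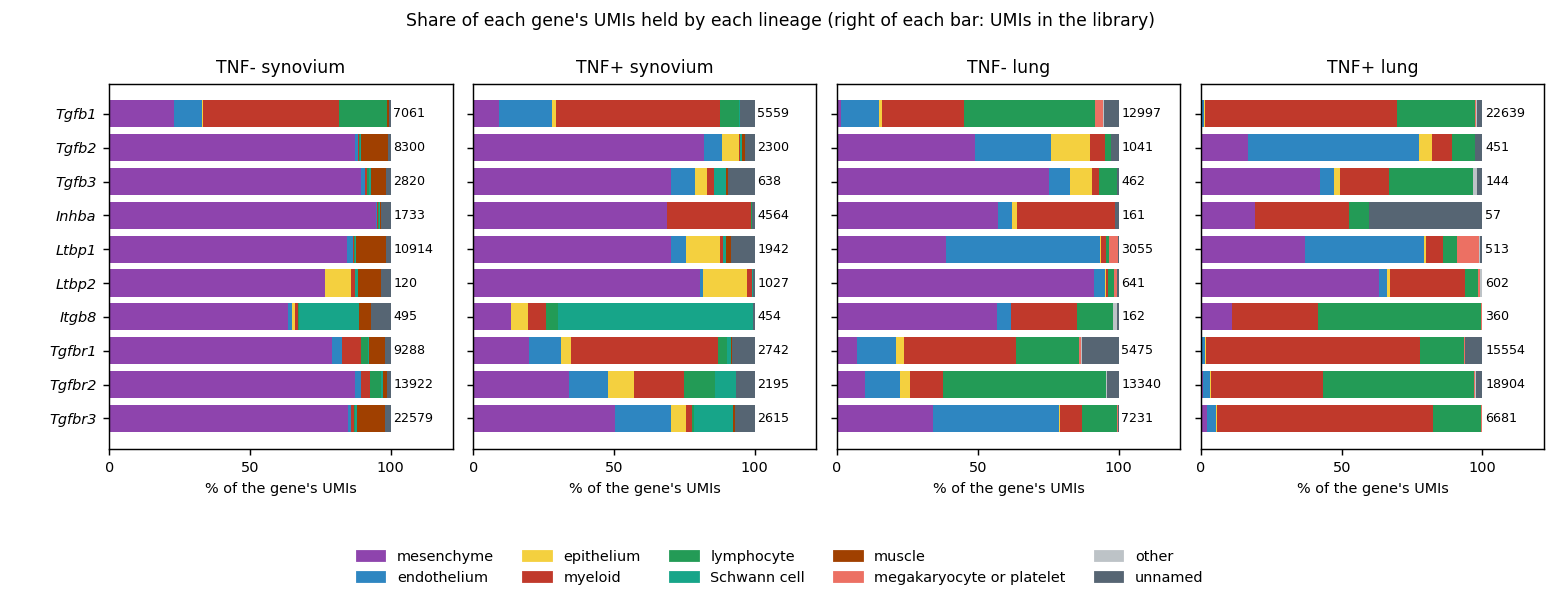
Share of each gene's UMIs held by each lineage (stacked, in percent) in the 4 libraries, with the UMI total of the gene at the right of each bar. Inhba moved from 94.7% mesenchymal in TNF- synovium to 68.8% mesenchymal and 29.8% myeloid in TNF+.

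A wider list of 40 pathway genes was read in the same comparisons: 12 genes of latency and activation, 4 activin subunits and inhibitors, 5 other receptors, 12 SMADs and their regulators, and 7 genes that TGF-beta is known to induce. In synovial mesenchyme 9 of 40 genes with enough UMIs were higher against 9.35% of all genes tested, and 3 lower against 21.5% (median log2 ratio 0.22). Target genes had 3 of 7 higher and 0 lower, latency and activation genes 3 of 12 higher and 1 lower, and SMADs and regulators 2 of 12 higher and 0 lower. The largest changes were in Postn, a matrix protein of activated fibroblasts, at a log2 ratio of 3.56 (65.2 and 768 CPM) and the cell cycle inhibitor Cdkn2b at 3.05 (1.06 and 8.77 CPM). The activin inhibitor Fst was lower at -2.04 (301 and 73.1 CPM), as was the latent binding protein Ltbp4 at -1.65 (559 and 178 CPM). None of the 40 genes was read under the alternatives or without the Mmp13 and Trem2 clusters. The Mmp13 cluster held 231 of the 592 mesenchymal cells of TNF+ synovium, and the Trem2 cluster 755 of its 1107 myeloid cells.

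In synovial myeloid cells 7 of 36 genes with enough UMIs were higher against 9.06% of all genes tested, and 8 lower against 20.3% (median log2 ratio 0.091). The membrane collagenase Mmp14 led at 5.51 (5.78 and 264 CPM), with the inhibitory Smad6 at 2.33 (2.49 and 12.5 CPM). Fst was at 2.19 (1.79 and 8.19 CPM) and Ltbp4 at -4.26 (15.7 and 0.819 CPM). In synovial endothelium 5 of 37 genes with enough UMIs were higher against 6.65% of all genes tested, and 2 lower against 10.5% (median log2 ratio 0.036). The SMAD co-repressor Tgif1 was at 1.72 (24.7 and 81.5 CPM) and the latency breaker Thbs1 at 1.12 (29.6 and 64.2 CPM). The target Tgfbi was at -1.10 (29.9 and 14 CPM) and Mmp14 at 1.04 (13.5 and 27.7 CPM). In synovial lymphocytes 2 of 32 genes with enough UMIs were higher against 7.89% of all genes tested, and 14 lower against 13% (median log2 ratio -0.68). Timp3, a stromal protease inhibitor, was at -5.20 (31.2 and 0.849 CPM) and Ltbp4 at -4.27 (32.7 and 1.7 CPM). Thbs1 in those lymphocytes was at -2.50 (24 and 4.24 CPM) and the decoy receptor Bambi at -1.96 (39.6 and 10.2 CPM). Col3a1 fell in the same lymphocytes by the amounts given with Tgfb2, and its part was not tested. In Schwann cells 6 of 29 genes with enough UMIs were higher against 11.6% of all genes tested, and 4 lower against 13.4% (median log2 ratio -0.060). Fn1 was at 3.24 (14 and 133 CPM), Postn at -2.75 (719 and 107 CPM) and Cdkn1a at 1.84 (432 and 1545 CPM). Over the whole synovium 4 of 40 genes with enough UMIs were higher against 11.8% of all genes tested, and 7 lower against 21.9% (median log2 ratio -0.0028).

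In lung mesenchyme 2 of 36 genes with enough UMIs were higher against 9.28% of all genes tested, and 5 lower against 9.01% (median log2 ratio -0.17). Timp3 was at -1.90 (1427 and 383 CPM), Bambi at -1.77 (47.7 and 14 CPM), Tgfbi at -1.63 (227 and 73.4 CPM) and the activin receptor Acvr2a at -1.24 (115 and 48.9 CPM). In lung endothelium 6 of 36 genes with enough UMIs were higher against 10.1% of all genes tested, and 7 lower against 8.77% (median log2 ratio 0.032). Among target genes there 3 of 7 were higher and 1 lower: Fn1 was at 3.93 (9.1 and 138 CPM) and Tgfbi at 2.25 (5.59 and 26.6 CPM). Lrrc32, which tethers latent TGF-beta to the cell surface, was lower there at -4.12 (69.3 and 3.99 CPM), as was the target Ccn2 at -2.07 (25.1 and 5.98 CPM). The macrophage transcript C1qb was at 0.0101 UMIs per endothelial cell in TNF- and 0.349 in TNF+, and its part in the endothelial ratios was not tested. The endothelial clusters also differed between the 2 lung libraries, as given with Tgfbr2.

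In lung myeloid cells 3 of 36 genes with enough UMIs were higher against 4.23% of all genes tested, and 8 lower against 15.6% (median log2 ratio -0.0082). Target genes there had 1 of 7 higher and 4 lower. Thbs1 was at -2.56 (12.3 and 2.08 CPM), Mmp14 at 2.31 (19.8 and 97.8 CPM) and Fn1 at -1.67 (316 and 99.3 CPM). The integrin chain Itgb3 was higher in TNF+ (14 and 39.5 CPM). In lung lymphocytes 6 of 36 genes with enough UMIs were higher against 6.05% of all genes tested, and 6 lower against 8.34% (median log2 ratio 0.10). Mmp14 was at 3.43 (0.729 and 7.85 CPM) and Smad6 at -2.74 (4.18 and 0.624 CPM). Tgfbi was at 2.27 (2.14 and 10.3 CPM) and Timp3 at -1.80 (6.51 and 1.87 CPM). C1qb was at 0.0119 UMIs per lung lymphocyte in TNF- and 0.446 in TNF+. In lung epithelium 5 of 36 genes with enough UMIs were higher against 11.7% of all genes tested, and 11 lower against 7.13% (median log2 ratio 0.031). Cdkn2b, Bambi, Timp3 and Thbs1 were lower at -2.38, -2.29, -2.004 and -1.48. Over the whole lung 1 of 40 genes with enough UMIs was higher against 5.79% of all genes tested, and 19 lower against 25.5% (median log2 ratio -0.84). Smad6 and the endothelial receptors and anchors Eng, Lrrc32 and Acvrl1 led at -4.55, -4.23, -4.21 and -4.15, in a library with 398 endothelial cells against 2282 in TNF-.

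**Figure D5:**
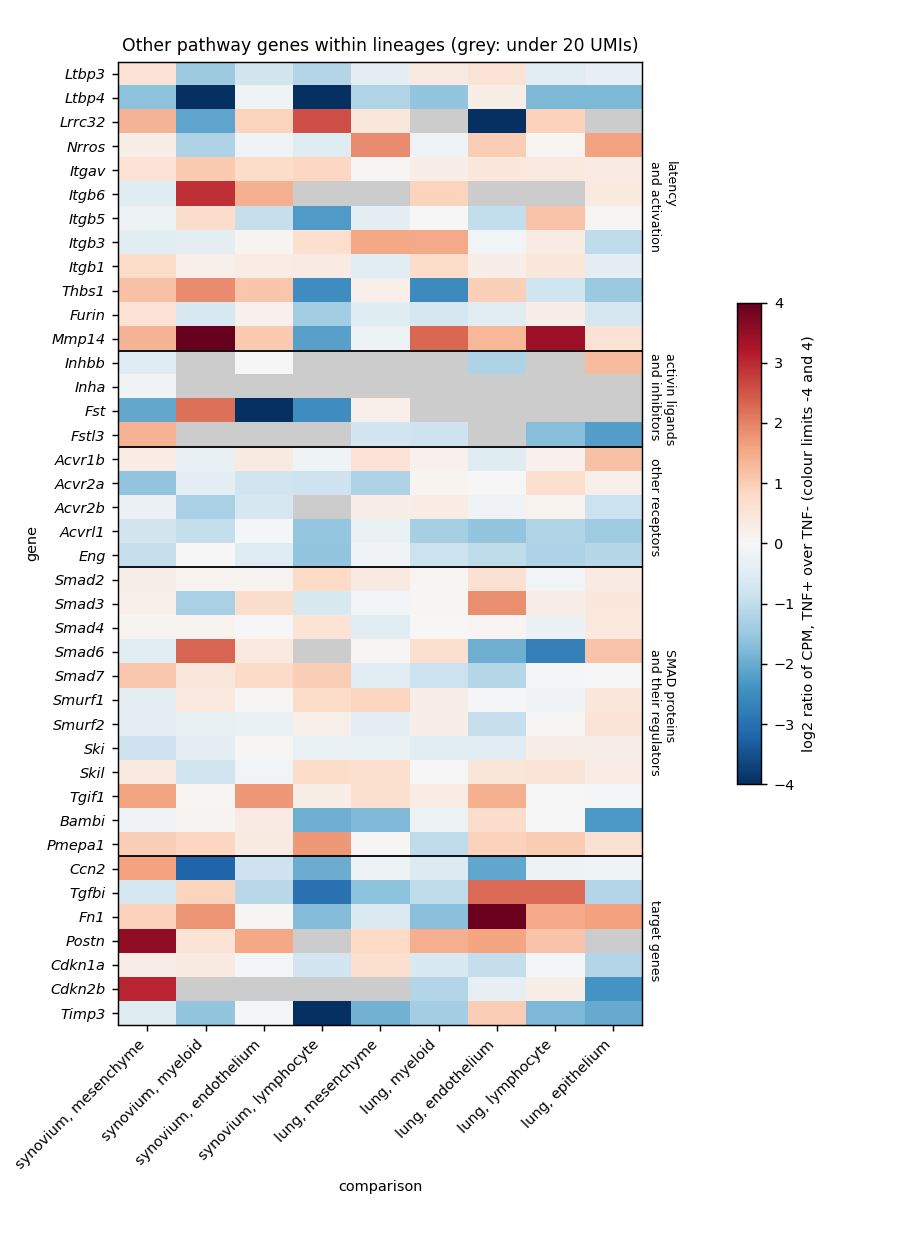
Log2 ratio of TNF+ over TNF- for the 40 other pathway genes (rows) in 9 lineage comparisons (columns), colour limits at 4 and -4, grey where fewer than 20 UMIs were counted over both libraries. Postn and Mmp14 stand out in synovial mesenchyme and myeloid cells at 3.56 and 5.51, and Fn1 and Tgfbi in lung endothelium at 3.93 and 2.25.

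The genes whose level followed each member most closely were read from 25 lineage sums of at least 50 cells over the 4 libraries, as Pearson's r of log2(CPM + 1) among 16109 genes. The sums share libraries, depth and lineage, so r is a description. Tgfb1 was most like Srgn (0.94), Sh3bgrl3 (0.913) and Arpc2 (0.911). For Tgfb2 the genes were Arhgef25 (0.911), Synm (0.907) and Wtip (0.906), and for Tgfb3 they were Epdr1 (0.937), Kirrel (0.937) and Arhgef25 (0.935). Inhba was followed by Ndufa4l2 (0.823), Gm21860 (0.822) and Timp1 (0.818), the last a protease inhibitor of inflamed stroma. Ltbp1 was closest to Cald1 (0.893), Arhgap28 (0.85) and Triqk (0.829). Ltbp2 was closest to Trpc6 (0.881), Cnn1 (0.877) and Acta2 (0.825), of which Cnn1 and Acta2 are genes of contractile cells. Itgb8 was most like Rab39b (0.896), Prelid3a (0.855) and Plekha4 (0.847). The receptors had lower values, with Tgfbr1 closest to Slc41a3 (0.788), Fam49a (0.729) and Tmem51os1 (0.729), Tgfbr2 to Lclat1 (0.811), Maml2 (0.809) and Usp48 (0.806) and Tgfbr3 to Olfml2a (0.828), Mxra7 (0.824) and Pcdhb22 (0.811).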

How the data were processed

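Cells of synovium and lung were sorted as live cells and captured with a 10x 3' kit. Raw UMI counts, 1 matrix of genes by barcodes per library, were deposited by the authors, made with Cell Ranger 7.0.1 on the mm10 reference and not normalized. That version counts intronic reads by default, so the counts include unspliced transcripts. No cell annotation was used, so cell types were rebuilt here and may differ from those of the study. The tables held 6899 TNF- and 4246 TNF+ synovial barcodes and 8555 TNF- and 11243 TNF+ lung barcodes, of which cells with 200 to 5000 genes and at most 20% mitochondrial UMIs were kept. Both libraries of a tissue were scaled to 10000 UMIs per cell and clustered together without batch correction (2000 variable genes without the members and pathway genes, 30 components, 20 neighbours, Leiden resolution 0.8), giving 28 synovial and 35 lung clusters, which were named from 311 markers of 19 cell types. The members and lists were chosen with earlier results of these data known.

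UMIs were summed per lineage and library and given as CPM with exact Poisson intervals, as shares with Clopper-Pearson intervals and as ratios with conditional binomial intervals, all at 95%. A ratio against 0 used a floor of 3 UMIs. Lineages were compared where both libraries held at least 50 cells. Shares of cells with a UMI were taken after thinning each cell to 1000 UMIs. The ratio interval was tried on simulated independent counts drawn at whole-library totals. These do not mimic UMIs clumped in a few cells, so coverage in such sums was not tested. All 10 members are named, and of the 40 pathway genes those past 2-fold with at least 100 UMIs, at most 4 per comparison. A further gene of the pathway list is not reported here. Alternatives were other cell filters (none, or at least 500 genes, 1000 UMIs and at most 10% mitochondrial UMIs), doublet removal by Scrublet score (0.8% of cells per 1000 barcodes), resolutions 0.4 and 1.4, separate clustering, median-of-ratios scaling, equal weight per cell, minimums of 100 and 5 UMIs, thinning to 500 UMIs and leaving out clusters with over 90% of cells from 1 library. Doublets were otherwise kept. Leaving out clusters mostly of 1 library drops TNF- clusters as well as TNF+ clusters. Genes that overlap Ltbp1 or Tgfbr3 on the same strand were not in the count table. Python 3.11.15, numpy 2.4.6, scipy 1.17.1, scikit-learn 1.9.0, leidenalg 0.10.2 and scanpy 1.11.5 were used.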

Additional observations from a re-analysis of the deposited data

Results flagged for a closer look

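In 9 of 44 pairs of a gene and a lineage (or whole tissue) measured in both tissues, the log2 ratio of TNF+ over TNF- had counting intervals on opposite sides of 0 in synovium and lung. Each tissue had 1 library per genotype, so the difference between the tissues was not tested. In myeloid cells Inhba was at 6.58 in synovium and -3.98 in lung, where the lung value rested on 56 TNF- UMIs of which 41 lay in 1 cell. Myeloid Itgb8 was at 1.61 in synovium and -0.87 in lung, and myeloid Tgfbr3 at -2.60 in synovium and 0.81 in lung. In endothelium Ltbp1 was at -1.29 in synovium and 0.27 in lung, Tgfbr2 at -0.25 in synovium and 1.29 in lung and Tgfbr3 at 0.55 in synovium and -0.73 in lung. The lung endothelial clusters differed between TNF+ and TNF-, as given with Tgfbr2. Over the whole tissue Inhba was at 2.60 in synovium and -2.15 in lung, Ltbp2 at 4.30 in synovium and -0.74 in lung and Tgfbr1 at -0.55 in synovium and 0.86 in lung.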

How the results depend on the processing

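Of the 44 called ratios of single genes, 18 stayed past 2-fold in the same direction under each alternative that gave a value. For 8 of these every alternative did, among them Inhba and Tgfbr3 in synovial myeloid cells, Ltbp2 in synovial mesenchyme and Itgb8 in lung lymphocytes, while 10, among them Tgfb2 in lung endothelium, had too few UMIs or cells under 1 to 3 alternatives. The other 26 fell short under at least 1 alternative, and 4 of them turned under at least 1. The cause of each change was not tested except where the alternative itself drops low genes. The UMIs per cell and the version without the Trem2 and Mmp13 clusters were chosen after seeing the data. Shares over all genes were not taken under the alternatives, so the counts below have no background beside them. Counting UMIs per cell lowers every gene alike where TNF+ cells are shallower. Lung mesenchyme held 4043356 UMIs in 562 TNF- cells and 572205 UMIs in 210 TNF+ cells. Without the cell filters, the number of genes higher became 1 in lung endothelium and 0 in platelets, and the number of genes lower became 3 in synovial mesenchyme and 2 in lung epithelium. With the stricter cell filter, the number of genes higher became 0 in synovial lymphocytes and 2 in lung myeloid cells. Without predicted doublets, the number of genes higher became 0 in Schwann cells and 0 in synovial lymphocytes, and the number of genes lower became 2 in Schwann cells, 1 in synovial lymphocytes, 1 in synovial myeloid cells, 2 in lung epithelium, 0 in platelets and 2 in lung myeloid cells, and the ratio turned for Tgfb2 in lung myeloid cells at 0.74. At clustering resolution 0.4, the number of genes higher became 1 in synovial endothelium, and the number of genes lower became 0 in synovial endothelium. At resolution 1.4, the number of genes higher became 2 in lung lymphocytes and 0 in platelets, and the number of genes lower became 0 in platelets. With each library clustered by itself, the number of genes higher became 3 in platelets and 2 in lung myeloid cells, and the number of genes lower became 0 in synovial mesenchyme, 2 in lung epithelium, 1 in lung lymphocytes and 2 in platelets. With median-of-ratios scaling, the number of genes higher became 0 in platelets and 1 in whole lung, and the number of genes lower became 0 in synovial mesenchyme and 2 in lung epithelium. With each cell weighted equally, the number of genes higher became 2 in synovial mesenchyme, 2 in lung epithelium, 3 in platelets and 1 in whole lung, and the number of genes lower became 2 in Schwann cells, 1 in lung lymphocytes, 0 in platelets and 3 in lung mesenchyme, and the ratio turned for Itgb8 in lung mesenchyme at -0.39. At a minimum of 100 UMIs, the number of genes higher became 0 in Schwann cells, 0 in synovial lymphocytes, 1 in synovial myeloid cells, 0 in lung epithelium and 0 in platelets, and the number of genes lower became 0 in Schwann cells, 1 in synovial lymphocytes, 1 in synovial myeloid cells, 0 in lung epithelium and 0 in lung myeloid cells. At a minimum of 5 UMIs, the number of genes higher became 1 in synovial endothelium, 2 in synovial lymphocytes, 5 in lung endothelium and 3 in lung epithelium, and the number of genes lower became 2 in Schwann cells and 2 in synovial endothelium. Without clusters mostly of 1 library, the number of genes higher became 1 in synovial mesenchyme, 1 in synovial myeloid cells, 0 in whole synovium and 2 in lung lymphocytes, and the number of genes lower became 0 in whole synovium and 0 in lung mesenchyme, and the ratio turned for Inhba in whole synovium at -0.18. As UMIs per cell, the number of genes higher became 2 in synovial endothelium, 2 in synovial mesenchyme, 2 in platelets, 0 in lung mesenchyme and 1 in whole lung, and the number of genes lower became 3 in Schwann cells, 0 in synovial endothelium, 3 in synovial mesenchyme, 1 in lung endothelium, 3 in lung epithelium, 0 in platelets and 7 in lung mesenchyme. Without the Trem2 and Mmp13 clusters, the number of genes higher became 2 in synovial mesenchyme and 1 in synovial myeloid cells, and the number of genes lower became 0 in synovial mesenchyme, and the ratio turned for Tgfb2 in synovial mesenchyme at -0.041 and Inhba in whole synovium at -0.56. No count could be had for lung endothelium and Schwann cells without clusters mostly of 1 library, nor for platelets with the stricter cell filter, and the version without the Trem2 and Mmp13 clusters was run for synovial mesenchyme, myeloid cells and whole synovium. All other counts that are not listed under a setting stayed within 1.5 times their value in the report. No paired analysis was possible because each group had 1 library, and for the same reason no replicate could be left out. Depth limits the low lineages: ratios on fewer than 100 UMIs over both libraries often rested on a few cells.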
